A study of Mus musculus with 8 samples.

Results

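The DNA replication, cyclin and E2f genes were the genes named on the Agilent mouse array as Mcm, Orc, Gins, Rfc, Prim or E2f followed by a digit, as cyclins of the A, B, D or E class, as Cdk1, Cdk2, Cdk4 or Cdk6, or as Cdc6, Pcna, Pola1 or Pole. Ccnd1 was left out of the set. Names alone chose them, from the names in the deposited MEF file, and 85 probes on 103 spots passed, which stood for 50 of the 27882 genes on the array. Of the 50, 27 belong to the S phase machinery, 7 to G1, 6 to G2 and mitosis and 8 are E2f genes. The remaining pair, Mcm3ap and the pseudogene Ccnb2-ps, only share the name pattern.

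RNA of 4 mouse cell populations was hybridised to this array in 1 colour, with 1 array per population and 1 shared label (Cy3). PM2i-iPSC were mouse embryonic fibroblasts that had been given combinations containing purmorphamine, an agonist of the Hedgehog pathway component Smoothened, and then 2i/LIF. OM2i-iPSC were fibroblasts given combinations with an oxysterol in its place and then 2i/LIF. ES were blastocyst-derived embryonic stem cells of the 129/Ola background, and MEF were embryonic fibroblasts with no treatment named in the labels. The labels gave no background for MEF or for either iPSC preparation, and no passage number, dose or day. The 2i/LIF medium combines inhibitors of the kinases MEK and GSK3 with the cytokine LIF. Another 4 populations of the study (ES, astrocytes, astrocytes carrying Bmi1 and spheres derived from them) were measured on an Affymetrix array and were not analysed here.

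Before a cell can copy its DNA, the origin recognition complex (Orc1 to Orc6) marks origins in G1, and Cdc6 with Cdt1 loads the Mcm2 to Mcm7 helicase there. GINS and Cdc45 switch the helicase on in S phase, primase and polymerase alpha start each strand, and the Rfc clamp loader places the Pcna clamp that holds the later polymerases on DNA. D cyclins with Cdk4 or Cdk6 and E cyclins with Cdk2 inactivate the retinoblastoma proteins in G1, which frees E2f factors to turn on many of these same genes. Mouse ES cells are known for a short G1 phase and for cyclin E and Cdk2 activity through most of the cycle.

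Promoters of these genes are classic places of E2f binding, so 4 of them are shown, each covering 250 bases before to 50 bases after the annotated start, 5′ to 3′ on the strand of the gene, from RefSeq on build GRCm38.p6. Capitals mark every match to TTTGGCGC, TTTCCCGC, TTTGCCGC or TTTCGCGC on either strand, and overlapping matches run together. Orc1 (chr4:108579204-108579503, plus strand) is given for its difference from MEF, Mcm5 (chr8:75109259-75109558, plus strand) and Mcm6 (chr1:128359656-128359955, minus strand) because their levels went different ways, and Pola1 (chrX:93632106-93632405, minus strand) because OM2i-iPSC stood apart there.
Orc1: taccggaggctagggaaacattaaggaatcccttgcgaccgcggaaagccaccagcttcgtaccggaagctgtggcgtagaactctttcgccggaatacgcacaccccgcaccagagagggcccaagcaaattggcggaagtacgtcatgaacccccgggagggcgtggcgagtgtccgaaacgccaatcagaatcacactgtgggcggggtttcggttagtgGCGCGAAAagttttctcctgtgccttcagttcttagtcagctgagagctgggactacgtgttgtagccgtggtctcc
Mcm5: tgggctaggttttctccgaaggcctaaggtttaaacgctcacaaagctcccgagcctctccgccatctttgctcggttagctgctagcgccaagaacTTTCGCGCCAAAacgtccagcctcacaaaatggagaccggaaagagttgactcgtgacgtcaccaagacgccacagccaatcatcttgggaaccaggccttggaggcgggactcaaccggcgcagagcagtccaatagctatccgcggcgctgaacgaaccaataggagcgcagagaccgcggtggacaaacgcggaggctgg
Mcm6: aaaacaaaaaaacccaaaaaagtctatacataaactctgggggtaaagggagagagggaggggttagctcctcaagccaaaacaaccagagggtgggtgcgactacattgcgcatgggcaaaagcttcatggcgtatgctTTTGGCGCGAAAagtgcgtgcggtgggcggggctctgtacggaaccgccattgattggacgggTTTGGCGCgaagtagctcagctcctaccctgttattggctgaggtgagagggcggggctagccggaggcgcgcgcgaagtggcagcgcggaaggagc
Pola1: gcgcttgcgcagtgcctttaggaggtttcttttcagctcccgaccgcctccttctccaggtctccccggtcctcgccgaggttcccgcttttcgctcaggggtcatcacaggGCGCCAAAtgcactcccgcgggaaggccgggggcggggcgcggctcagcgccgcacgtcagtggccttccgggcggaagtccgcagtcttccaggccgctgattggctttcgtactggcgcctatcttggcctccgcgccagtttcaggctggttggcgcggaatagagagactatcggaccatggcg

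Of the 38 member genes with a promoter in that table, 16 (42.1%) held at least 1 of the 4 spellings, against 704 of all 27025 genes with one (2.60%). Among the S phase genes 11 of 21 held them, namely Cdc6, Gins3, Mcm3, Mcm5, Mcm6, Mcm7, Mcm8, Orc1, Orc3, Pola1 and Rfc3. Cdk2 was the 1 match among 5 G1 genes, Cdk1 the 1 match among 5 G2 and mitosis genes, and E2f2, E2f3 and E2f7 the 3 matches among 6 E2f genes. Members with and without the letters lay on both sides of the 2-fold limit. Mcm6, with 3 matches, differed between ES and MEF by -0.04 on the log2 scale, while Mcm2 and Prim1, 6.13 and 8.26-fold higher in ES, were not among the matches. A second spelling, TTTGAA, which marks the cell cycle homology region of many mitotic promoters, stood in 7 of the 38 (18.4%), against 20.2% of all genes, and Ccnb2 and Cdk1 were its 2 carriers among the G2 and mitosis genes.

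The oligos themselves matter for 3 genes whose probes read the same populations differently, and the 60-base probes nearest the 5′ end are shown for them, as given in the MEF file, whose coordinates are on build mm7. The first Ccnd2 probe lies at chr6:127173178-127173237 and the second at chr6:127163669-127163728, both on the minus strand. The first Cdk6 probe spans chr5:3479226-3521510 on the plus strand and the first Mcm3 probe chr1:21000880-21001396 on the minus strand, spans longer than the oligo, so both match the genome in pieces. None of the letters is set in capitals because no part of a probe is singled out.
Ccnd2 first probe: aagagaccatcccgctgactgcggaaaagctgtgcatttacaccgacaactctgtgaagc
Ccnd2 second probe: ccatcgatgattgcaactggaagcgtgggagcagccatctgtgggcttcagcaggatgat
Cdk6 first probe: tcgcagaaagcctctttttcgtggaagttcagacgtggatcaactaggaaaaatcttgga
Mcm3 first probe: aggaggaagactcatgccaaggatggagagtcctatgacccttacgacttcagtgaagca

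Levels are given as log2 of the processed signal minus log2 of the 75th percentile of the same array, so that 0 is the brightness of a probe at that percentile. The percentile was 3529 for PM2i-iPSC, 3426 for OM2i-iPSC, 3162 for ES and 1877 for MEF. Of the 50 genes, 49 were well above background in PM2i-iPSC, 49 in OM2i-iPSC, 49 in ES and 48 in MEF. With 1 array per population there was no replicate spread, no test and no p-value, and a single array does not show how such cells vary. Error could be judged only from repeated spots of the same oligo, whose log2 values on an array had a pooled SD of 0.193. A difference between 2 arrays then has an SD of 0.272, and differences within 0.545 lay inside 2 such SDs. PM2i-iPSC and ES shared a slide, OM2i-iPSC was on a second slide scanned the same day, and MEF was on another slide again, scanned on another day with older software, so slide, scan day, software and population cannot be told apart in any comparison with MEF. In such bulk RNA, fewer cells in a phase of the cycle and less RNA per cell cannot be told apart either.

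The labels were checked on markers. All 8 ES markers listed for this purpose (Pou5f1 and Nanog among them) were well above background on each array, with medians of 3.65 in PM2i-iPSC, 3.20 in OM2i-iPSC, 3.95 in ES and -4.11 in MEF. Of 8 fibroblast markers (Thy1 and Col1a2 among them), 5 were well above background in PM2i-iPSC, 6 in OM2i-iPSC, 8 in ES and 8 in MEF. Their medians were -3.26, -3.60 and -2.27 on the 3 pluripotent arrays in that order, against 4.43 in MEF. Among 3 markers each of other cell types, macrophage markers had medians of -2.16, -4.68, -2.38 and -1.77 and endothelial ones of -6.53, -6.66, -6.10 and -4.48, in the order PM2i-iPSC, OM2i-iPSC, ES, MEF. In the same order, trophoblast markers had -3.25, -2.27, -3.05 and -6.53 and neural ones -2.23, -1.35, -1.97 and -6.92. Well above background were 2, 1, 3 and 2 macrophage markers and 1, 1, 1 and 3 endothelial ones. For trophoblast and neural markers these counts were 2, 3, 3, 2 and 3, 3, 3, 1. The lists were mixed, since Cdx2, Eomes, Pax6 and Sox1 were lowest in MEF, while Gata3 (0.75) and Nes (0.30) were highest there. Cdx2 read -3.25 in PM2i-iPSC, 0.43 in OM2i-iPSC and -3.05 in ES. The part of such cells in the values below was not tested.

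With arrays scaled to their 75th percentile, most S phase genes were at least 2-fold higher in each of the 3 pluripotent populations than in fibroblasts. The G1 genes went both ways, at shares near or under those of all genes. With median scaling the higher S phase genes were no longer a majority, at 9 of 26 in PM2i-iPSC, 8 of 27 in OM2i-iPSC and 12 of 26 in ES. Under the percentile scaling, 25 of the 47 members with a difference were at least 2-fold higher in PM2i-iPSC than in MEF, where 37.6% of all 19761 genes were, and 5 were at least 2-fold lower, where 26.2% of all genes were. In OM2i-iPSC, 24 of 50 were higher, where 40.1% of all genes were, and 4 lower, where 25.2% were. In ES, 28 of 48 were higher, where 36.3% of all genes were, and 2 lower, where 24.2% were. As shares of the members, 53.2% were higher and 10.6% lower in PM2i-iPSC, OM2i-iPSC had 48% higher and 8% lower, and ES had 58.3% higher and 4.17% lower. Under this scaling the members' shares of higher genes lay above those of all genes and their shares of lower genes below them, with the smallest gap for higher genes in OM2i-iPSC. All 3 comparisons share the single MEF array, so they are not independent of each other.

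The S phase part held most of the higher members. At the 2-fold limit, 17 of its 26 genes with a difference were above MEF in PM2i-iPSC and 1 was below it, in OM2i-iPSC 17 of 27 were above and 1 below, and in ES 18 of 26 were above and 0 below. Its median log2 difference from MEF was 1.39 in PM2i-iPSC, 1.34 in OM2i-iPSC and 1.50 in ES. In the G1 part, 2 of 7 genes were higher and 2 lower in PM2i-iPSC, 2 higher and 1 lower in OM2i-iPSC, and 2 higher and 2 lower in ES. The share higher was 28.6% in each, where 37.6%, 40.1% and 36.3% of all genes were. The shares lower were 28.6%, 14.3% and 28.6%, where 26.2%, 25.2% and 24.2% of all genes were. These counts are thus not read as a trait of the G1 genes. The 1 lower gene in OM2i-iPSC was Cdk6, whose probes disagree. The G1 medians were 0.49 in PM2i-iPSC, 0.16 in OM2i-iPSC and 0.74 in ES, beside medians over all genes of 0.28, 0.40 and 0.28 in the same order. The 7 G1 genes thus had medians under those of the S phase part in each comparison with MEF, with a range that ran from -4.99 to 1.95 in PM2i-iPSC.

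The size of these differences rests on the scaling. With each array scaled to its own median instead of its 75th percentile, the median over all genes moved to -0.34 in PM2i-iPSC, -0.35 in OM2i-iPSC and -0.28 in ES against MEF, a downward shift in each. Members at least 2-fold higher then numbered 13 of 47 in PM2i-iPSC, 10 of 48 in OM2i-iPSC and 16 of 47 in ES, with 7, 7 and 5 lower. Among all genes 28.0%, 29.2% and 27.1% were then higher and 37.0%, 37.7% and 34.4% lower, so the share of higher members exceeded that of all genes in ES and no longer did in PM2i-iPSC and OM2i-iPSC. With no filter on background, 24 of 50 members were higher in OM2i-iPSC, again a smaller share than the 53.5% of all genes. In PM2i-iPSC 26 of 48 were higher, where 52.2% of all genes were, and in ES 29 of 49, where 50.1% were. Without that filter the S phase medians were 1.39 in PM2i-iPSC, 1.34 in OM2i-iPSC and 1.50 in ES. The medians over all genes were then 1.16, 1.28 and 1.01 in the same order. With median scaling the S phase medians were 0.76, 0.59 and 0.94, and the G1 medians were -0.13, -0.30 and 0.18. Under both scalings the S phase median lay above that of all genes in each of the 3 comparisons.

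**Figure D1:**
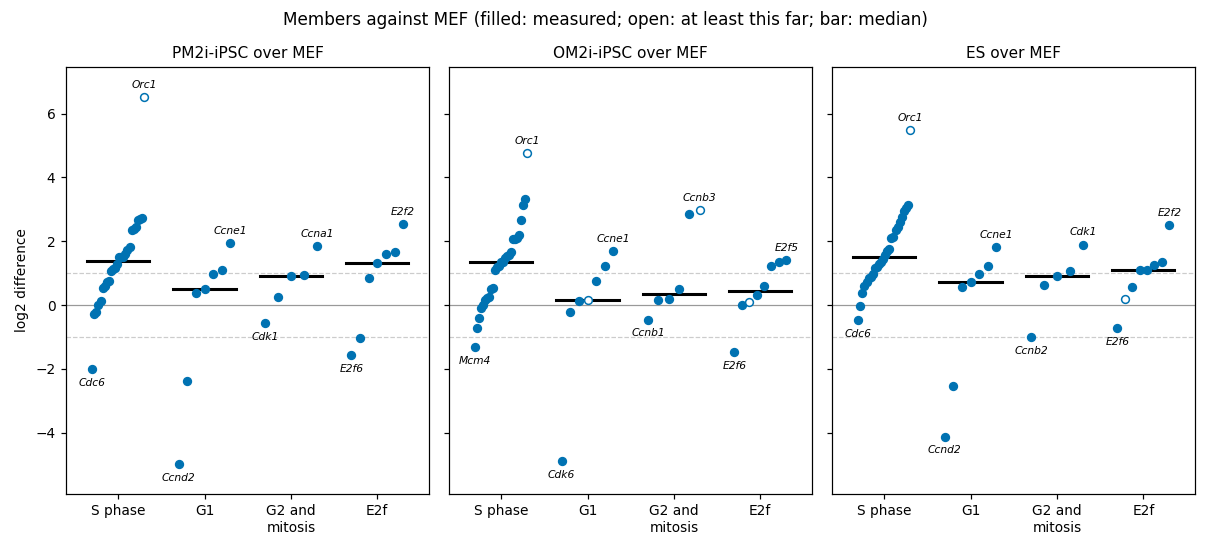
Log2 difference of each member from MEF (vertical axis), with 1 panel each for PM2i-iPSC, OM2i-iPSC and ES and 1 column of points per part; filled points were measured on both arrays, open points are bounds, black bars are medians and dashed lines mark 2-fold. The S phase columns lie mostly above the upper dashed line with medians of 1.39, 1.34 and 1.50, while the G1 columns spread on both sides of 0.

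Orc1, the largest subunit of the origin recognition complex, lay above MEF on its 1 probe in all 3 pluripotent populations. Its level was -0.33 in PM2i-iPSC, -2.10 in OM2i-iPSC and -1.38 in ES, and its probe was not well above background in MEF (-7.26). Measured against the lowest signal well above background on the MEF array, it was at least 92-fold higher in PM2i-iPSC, at least 27-fold higher in OM2i-iPSC and at least 44.3-fold higher in ES. The other subunits of the complex showed smaller distances on their brightest probes. Orc2 had levels of 2.58 in PM2i-iPSC, 3.13 in OM2i-iPSC, 2.75 in ES and 1.07 in MEF, between 2.85 and 4.17-fold above MEF. Orc6 was within 2-fold of MEF on all 3 arrays, at 2.14 in PM2i-iPSC, 1.60 in OM2i-iPSC, 2.20 in ES and 1.61 in MEF.

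Orc5 set 1 population apart, at -1.63 in PM2i-iPSC, 0.56 in OM2i-iPSC, -1.88 in ES and -2.78 in MEF. OM2i-iPSC was thus 10.1-fold above MEF where PM2i-iPSC was 2.21-fold and ES 1.86-fold above it. The second Orc5 probe did not show that excess of OM2i-iPSC, with levels of -3.66 in PM2i-iPSC, not well above background in OM2i-iPSC (-4.81), -4.15 in ES and not well above background in MEF. Orc4 probes also parted, since its brightest had 0.76 in PM2i-iPSC, 1.52 in OM2i-iPSC, 1.61 in ES and 0.17 in MEF, and the next 0.43, -0.14, 0.84 and 1.63 in that order, highest in MEF. Orc3 had its brightest probe (chr4:34706381-34706440, plus strand, mm7) on the strand opposite to the RefSeq gene, 1 of only 3 such probes among the 63 member probes whose gene strand was known. That probe differed from MEF by 0.75 in PM2i-iPSC, 0.16 in OM2i-iPSC and 0.73 in ES, and the 3 probes on the gene's own strand did not give 1 answer. The first of these differed from MEF by 2.03, 1.56 and 2.16, the second by 0.90, 1.27 and 1.23, and the third by 1.83, -0.41 and 1.03, below MEF in OM2i-iPSC.

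Cdc6, which brings the helicase to the origin complex, was an exception among the S phase genes. Its brighter probe read -3.34 in PM2i-iPSC, -1.74 in OM2i-iPSC, -1.81 in ES and -1.34 in MEF, lowest in PM2i-iPSC and 3.99-fold under MEF there. Its other probe read -2.55, -3.72, -1.76 and -4.07 in the same order, with MEF lowest and ES 2.31 log2 units above it. The probes disagree in direction for all 3 populations against MEF, so no direction for Cdc6 is given.

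The 6 subunits of the replicative helicase did not move as a block. Mcm2 read 2.96 in PM2i-iPSC, 1.81 in OM2i-iPSC, 3.19 in ES and 0.57 in MEF, which was 5.24, 2.36 and 6.13-fold above MEF. Mcm5 read 2.89, 3.26, 3.29 and 1.17 in the order PM2i-iPSC, OM2i-iPSC, ES, MEF, and Mcm7 read 2.35, 2.38, 2.13 and 0.85. All 3 were thus more than 2-fold above MEF on every pluripotent array. Mcm6 was level across the populations at 3.46 in PM2i-iPSC, 3.24 in OM2i-iPSC, 3.28 in ES and 3.32 in MEF, differences of at most 0.22 that lie within the spread of spots.

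Mcm3 and Mcm4 could not be read so plainly. The brightest Mcm3 probe gave 3.12 in PM2i-iPSC, 2.63 in OM2i-iPSC, 3.71 in ES and 3.34 in MEF, within 2-fold of MEF throughout. The Mcm3 probe printed above, 2701 bases upstream of it on the genome, gave 2.23, 2.98, 3.15 and -1.05 in that order, 3.29, 4.03 and 4.20 log2 units above MEF. The choice of probe alone therefore decides whether Mcm3 counts among the higher genes. The brightest Mcm4 probe was saturated in PM2i-iPSC (4.31) and ES (4.32) and read 3.68 in OM2i-iPSC and 4.99 in MEF. Only OM2i-iPSC over MEF gave a measured Mcm4 difference, 2.48-fold lower, and the other Mcm4 probe was not well above background on any of the 4 arrays.

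Mcm10, Mcm8, Gins1 and Gins3 were at least 2-fold above MEF on all 3 pluripotent arrays, and Gins4 on none of them. Mcm10, which helps the helicase start, read 2.65 in PM2i-iPSC, 2.70 in OM2i-iPSC, 3.15 in ES and 1.04 in MEF, and the related Mcm8, a helicase known from recombination, read 1.54, 1.39, 1.80 and 0.05. Of the GINS subunits, Gins1 read 2.28, 2.12, 2.90 and -0.06 and Gins3 read 1.34, 1.61, 1.97 and -0.47, both in the order PM2i-iPSC, OM2i-iPSC, ES, MEF. Gins1 was 5.08-fold, 4.55-fold and 7.78-fold above MEF. Gins4 differed from both, since it was 1.92 in PM2i-iPSC, 2.75 in OM2i-iPSC, 3.17 in ES and 2.20 in MEF, with PM2i-iPSC 1.22-fold under MEF.

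At the fork itself, the 4 primase and polymerase genes had median differences from MEF of 1.89 in PM2i-iPSC, 1.30 in OM2i-iPSC and 2.06 in ES. Prim1, the catalytic primase subunit, read 2.33 in PM2i-iPSC, 2.35 in OM2i-iPSC, 2.72 in ES and -0.33 in MEF, at 6.33, 6.40 and 8.26-fold. Pola1, the catalytic subunit of polymerase alpha, read 1.54 in PM2i-iPSC, -0.67 in OM2i-iPSC, 1.59 in ES and -1.17 in MEF. PM2i-iPSC and ES were thus 6.52 and 6.76-fold above MEF, while OM2i-iPSC was 1.42-fold above it and 4.77-fold under ES, on the 1 probe of this gene. Prim2 and Pole, the large subunits of primase and polymerase epsilon, lay between 1.63 and 2.79-fold above MEF.

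Among the clamp and its loader, Rfc3 had the widest distance, with -0.69 in PM2i-iPSC, -0.29 in OM2i-iPSC, -0.29 in ES and -3.43 in MEF, and was 6.67, 8.81 and 8.78-fold above MEF. Rfc4 read 2.30, 1.42, 2.22 and -0.14 in that order, Rfc2 read 3.82, 3.72, 4.10 and 2.54, and Rfc5 read 2.26, 1.40, 2.39 and 1.18. For Rfc4 and Rfc5 OM2i-iPSC lay below the other pluripotent arrays, by 0.80 and 0.99 log2 units against ES. Pcna, the clamp, was measured on 10 spots per array, more than most members. It read 1.78 in PM2i-iPSC, 2.03 in OM2i-iPSC, 2.64 in ES (9 spots) and 1.79 in MEF, with spot SDs of 0.121, 0.367, 0.277 and 0.0705. ES was 1.79-fold above MEF, and both iPSC preparations were within 1.18-fold of it.

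**Figure D2:**
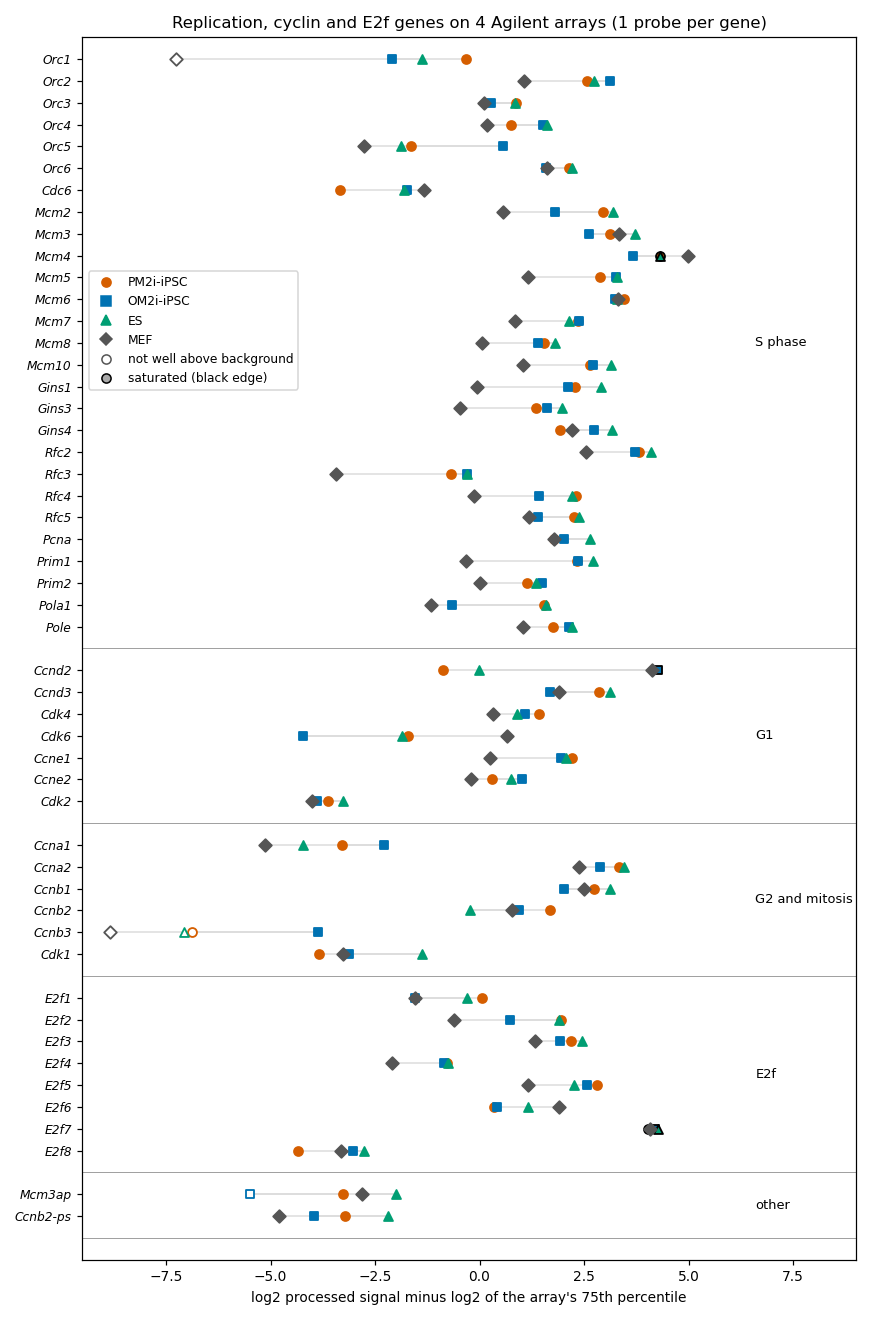
Level of each member on the 4 Agilent arrays, as log2 of the processed signal minus log2 of the array's 75th percentile (horizontal axis), 1 row per gene on its brightest probe, ordered by part; open symbols were not well above background and black edges mark saturation. For most S phase genes the grey MEF diamond lies to the left of the other 3 symbols, furthest for Orc1, while Ccnd2, Cdk6 and E2f6 have it on the right among the highest.

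The G1 genes lay on both sides of MEF. The D cyclin Ccnd2, a mitogen-responsive partner of Cdk4 and Cdk6, read -0.87 in PM2i-iPSC, was saturated in OM2i-iPSC (4.28), and read -0.0020 in ES and 4.12 in MEF on its brightest probe. PM2i-iPSC were 31.7-fold and ES 17.4-fold under MEF. Its other probes put OM2i-iPSC with ES instead. The second read -2.62 in PM2i-iPSC, -0.82 in OM2i-iPSC, -0.71 in ES and 3.87 in MEF, and the first was not well above background in PM2i-iPSC (-4.71) and read -0.55 in OM2i-iPSC, -0.35 in ES and 3.82 in MEF. ES minus MEF lay between -4.58 and -4.12 on all 3 probes, so for ES the direction did not depend on the probe.

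Ccnd3, the other D cyclin of the set, read 2.85 in PM2i-iPSC, 1.68 in OM2i-iPSC, 3.11 in ES and 1.89 in MEF, so that ES was 2.33-fold above MEF and OM2i-iPSC 1.16-fold under it. Cdk4 read 1.42, 1.08, 0.90 and 0.33 in that order, between 1.49 and 2.12-fold above MEF. Its sister kinase Cdk6 read -1.71 in PM2i-iPSC, -4.23 in OM2i-iPSC, -1.86 in ES and 0.66 in MEF on its brightest probe, 5.15, 29.6 and 5.75-fold under MEF. The probe nearest the 5′ end, printed above, put MEF lowest and OM2i-iPSC highest, with -2.53 in PM2i-iPSC, -1.19 in OM2i-iPSC, -3.19 in ES and -6.57 in MEF. Those are differences of 4.04, 5.38 and 3.38 above MEF, so Cdk6 has no settled direction.

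**Figure D3:**
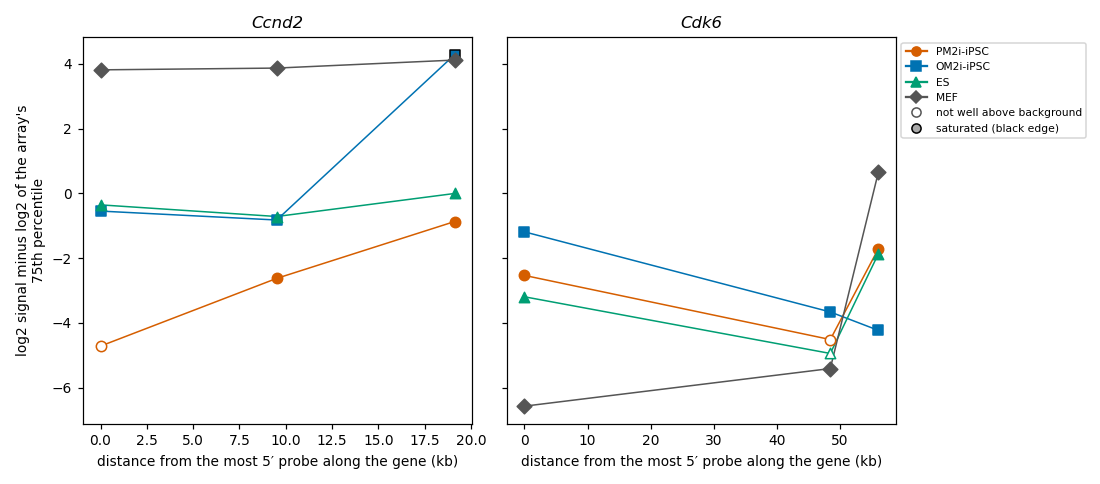
Level of each Ccnd2 and Cdk6 probe on the 4 arrays (log2 of the signal minus log2 of the array's 75th percentile, vertical axis) by its distance in kb from the most 5′ probe along the gene. For Ccnd2 the OM2i-iPSC square joins ES at the first 2 probes and reaches 4.28 at the last, and for Cdk6 the MEF diamond is lowest at the first probe and highest at the last.

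The E cyclins, which with Cdk2 drive entry into S phase, were on the higher side on their brightest probes. Ccne1 read 2.20 in PM2i-iPSC, 1.95 in OM2i-iPSC, 2.07 in ES and 0.25 in MEF, which was 3.87, 3.25 and 3.54-fold above MEF, and its second probe differed from MEF by 0.75, 0.95 and 0.59. Ccne2 read 0.30, 1.01, 0.76 and -0.20 on its brightest probe, at 1.41, 2.32 and 1.94-fold. The second Ccne2 probe differed from MEF by -0.45, 0.15 and 0.19, all within the spread of spots. Whether Ccne2 counts as higher in OM2i-iPSC therefore depends on the probe. Cdk2, the kinase of the E cyclins, was within 2-fold of MEF on all 3 arrays, with -3.63 in PM2i-iPSC, -3.88 in OM2i-iPSC, -3.27 in ES and -4.01 in MEF. Ccne1 was the 1 G1 gene at least 2-fold above MEF in all 3 pluripotent populations on its brightest probe.

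On their brightest probes, the mitotic cyclins Ccna2, Ccnb1 and Ccnb2 were at most 2.09-fold from MEF, and the larger differences of the G2 and mitosis genes were those of Ccna1, Cdk1 and Ccnb3. Ccna2, the A cyclin of dividing somatic cells, read 3.33 in PM2i-iPSC, 2.88 in OM2i-iPSC, 3.45 in ES and 2.39 in MEF, at most 2.09-fold above MEF. Its germline relative Ccna1 read -3.29, -2.30, -4.23 and -5.14, with OM2i-iPSC 7.17-fold above MEF. The mitotic B cyclin Ccnb1 read 2.73 in PM2i-iPSC, 2.03 in OM2i-iPSC, 3.13 in ES and 2.49 in MEF on its brightest probe, within 2-fold of MEF throughout. One of its 2 other probes lay above MEF by 2.62 in PM2i-iPSC, 2.43 in OM2i-iPSC and 2.87 in ES, the other by 3.57, 3.28 and 3.89 in that order, so Ccnb1 counts as higher or not by the probe taken.

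In Ccnb2, another mitotic B cyclin, ES lay lowest, at 1.68 in PM2i-iPSC, 0.95 in OM2i-iPSC, -0.22 in ES and 0.77 in MEF. The pseudogene Ccnb2-ps, whose probe may share sequence with it (not tested), was highest in ES, with -3.21, -3.96, -2.19 and -4.81. Cdk1, the mitotic kinase, was read by a dim probe with -3.84 in PM2i-iPSC, -3.12 in OM2i-iPSC, -1.37 in ES and -3.27 in MEF, and ES was 3.73-fold above MEF. Its second probe was not well above background on any array. Ccnb3, a B cyclin known from meiosis, was well above background in OM2i-iPSC alone (-3.87), which was at least 7.88-fold above MEF.

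Activator E2f factors (E2f1 to E2f3) switch S phase genes on, and the others mostly hold them down. Of the activators, E2f2 read 1.94 in PM2i-iPSC, 0.73 in OM2i-iPSC, 1.90 in ES and -0.61 in MEF, at 5.85, 2.53 and 5.69-fold above MEF. E2f3 read 2.19, 1.92, 2.45 and 1.33 in that order on its brightest probe, up to 2.17-fold above MEF. Another E2f3 probe differed from MEF by -0.52, 0.54 and 0.52, all within the spread of spots. A further one gave -1.20 in OM2i-iPSC and 0.40 in ES and was not well above background in PM2i-iPSC. The E2f3 reading thus also depends on the probe. E2f1 rested on its probe, since the brighter read 0.05 in PM2i-iPSC, -1.56 in OM2i-iPSC, -0.31 in ES and -1.55 in MEF. The other E2f1 probe, with 10 spots per array (9 in ES), read -1.75, -1.01, -1.98 and -1.62 with spot SDs of 0.308, 0.191, 0.208 and 0.153, so its PM2i-iPSC and ES values did not lie above MEF.

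Of the repressors, E2f4 read -0.79 in PM2i-iPSC, -0.86 in OM2i-iPSC, -0.75 in ES and -2.09 in MEF, and E2f5 read 2.81, 2.58, 2.26 and 1.16, so both were 2.14 to 3.15-fold above MEF. E2f6, which acts with Polycomb proteins and not through retinoblastoma proteins, was the opposite case at 0.34 in PM2i-iPSC, 0.41 in OM2i-iPSC, 1.17 in ES and 1.90 in MEF, 2.95, 2.79 and 1.66-fold under MEF. The atypical E2f7 and E2f8 were poorly measured. E2f7 was saturated in PM2i-iPSC (4.03), OM2i-iPSC (4.19) and ES (4.27) and read 4.08 in MEF, while its second probe read -1.29, -2.06, -1.51 and -3.76. E2f8 read -4.34 in PM2i-iPSC, -3.02 in OM2i-iPSC, -2.77 in ES and -3.32 in MEF, and the PM2i-iPSC value lay close to -4.59, below which no probe of that array was well above background.

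Between the pluripotent populations, fewer members were 2-fold apart than against MEF. In PM2i-iPSC over ES, the pair that shared a slide, 2 of 47 members were at least 2-fold higher, where 14.6% of all genes were, and 6 were lower, where 11.8% were. In OM2i-iPSC over ES, 5 of 49 were higher, where 21.6% of all genes were, and 11 lower, where 13.7% were. In PM2i-iPSC over OM2i-iPSC, 8 of 49 were higher, where 12.6% of all genes were, and 4 lower, where 17.7% were. Against ES the members leaned to the lower side, as 33 of 47 lay below 0 in PM2i-iPSC and 36 of 49 in OM2i-iPSC. Of all genes, 10071 of 19298 lay below 0 in PM2i-iPSC and 9499 of 19904 in OM2i-iPSC. The S phase medians were -0.26 in PM2i-iPSC and -0.41 in OM2i-iPSC, the G1 medians -0.26 and -0.12, and the medians over all genes -0.04 and 0.06. With median scaling the medians over all genes were -0.10 in PM2i-iPSC and -0.12 in OM2i-iPSC over ES and 0.014 in PM2i-iPSC over OM2i-iPSC, and the members counted higher and lower were 1 and 6, 4 and 12, and 8 and 4. The S phase medians over ES were then -0.33 in PM2i-iPSC and -0.59 in OM2i-iPSC. Both comparisons with ES share its array.

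In PM2i-iPSC over ES, the 2 higher members were Orc1 (2.08-fold) and Ccnb2 (3.74-fold). The 6 lower ones were Cdk1 (5.56-fold), E2f8 (2.97-fold), Cdc6 (2.88-fold), Mcm3ap (2.42-fold), Gins4 (2.38-fold) and Ccnb2-ps (2.03-fold). All 7 G1 genes were within 2-fold of ES, between -0.87 for Ccnd2 and 0.51 for Cdk4, although the second Ccnd2 probe gave -1.91. Apart from Orc1, Cdc6 and Gins4, the S phase genes with a difference, 23 of 26, were likewise within 2-fold.

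On the brightest probes OM2i-iPSC departed from ES at more members than PM2i-iPSC did, with 5 higher and 11 lower against 2 and 6. With the mean of all probes the counts were close, at 4 and 7 against 3 and 7. The second brightest probe gave 4 and 8 against 3 and 7. Among all genes, 21.6% were higher and 13.7% lower in OM2i-iPSC, against 14.6% and 11.8% in PM2i-iPSC. The values that follow are those of the brightest probes. Pola1 was 4.77-fold lower, Mcm2 2.60-fold and Mcm3 2.12-fold lower, and Orc5 5.43-fold higher, which were the 4 S phase genes past 2-fold. In the G1 part Ccnd2 was at least 19.5-fold higher on its saturated probe, Cdk6 5.15-fold lower and Ccnd3 2.69-fold lower. Both E2f1 (2.37-fold) and E2f2 (2.25-fold), activators of S phase genes, were lower, and Ccna1 was 3.81-fold, Ccnb2 2.25-fold and Ccnb3 at least 2.40-fold higher. Cdk1 (3.37-fold), Ccnb1 (2.14-fold), Ccnb2-ps (3.40-fold) and Mcm3ap (at least 6.07-fold) were the remaining lower members. Cdk6 and E2f1 had second probes that read the other way in this comparison, at 2.01 for Cdk6 and 0.97 for E2f1. Second probes of Ccnd2 (-0.11, within the spread of spots) and Orc5 (-0.44 or lower, as a bound) did not show the excess of OM2i-iPSC. Other probes of Mcm3 (-0.17) and Ccnb1 (-0.44 and -0.62) were within 2-fold of ES, so these calls also depend on the probe.

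**Figure D4:**
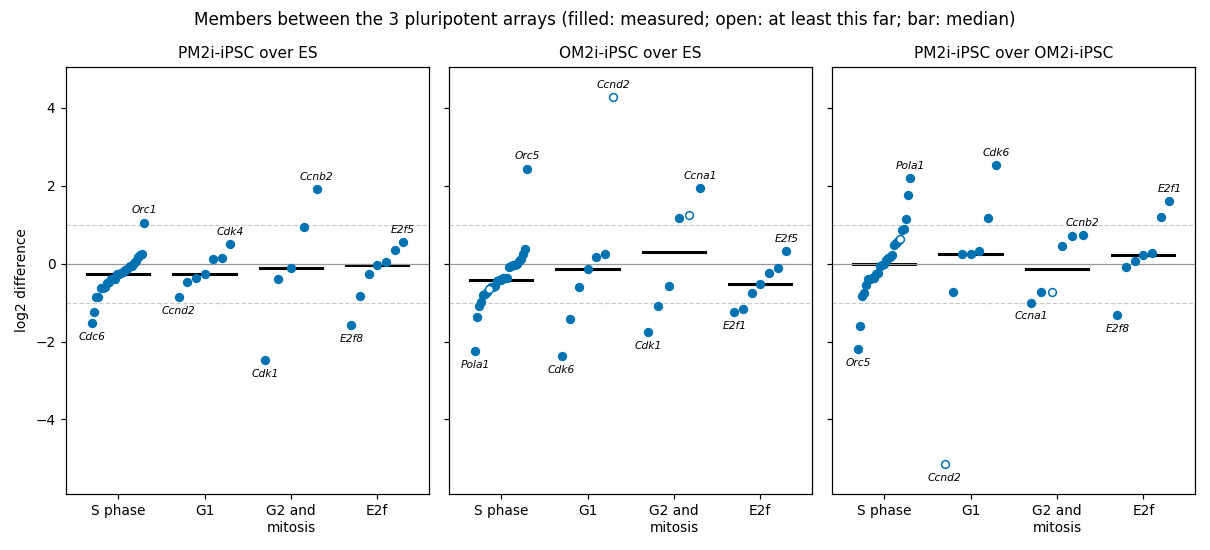
Log2 difference of each member between the 3 pluripotent arrays (vertical axis), with 1 panel per comparison and 1 column of points per part; filled points were measured on both arrays, open points are bounds, black bars are medians and dashed lines mark 2-fold. Most points lie between the dashed lines, and the far points are Ccnd2, Cdk6, Pola1 and Orc5 where OM2i-iPSC is compared and Cdk1 and Ccnb2 in PM2i-iPSC over ES.

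Set directly against each other, the iPSC preparations differed at 12 members. In PM2i-iPSC, Pola1 was 4.60-fold, Orc1 3.41-fold, Mcm2 2.22-fold, E2f1 3.05-fold, E2f2 2.31-fold, Ccnd3 2.25-fold, Cdk6 5.75-fold and Mcm3ap at least 2.50-fold higher than in OM2i-iPSC. Ccnd2 was at least 35.5-fold lower on its probe saturated in OM2i-iPSC, and Orc5 was 4.56-fold, Cdc6 3.02-fold and E2f8 2.49-fold lower. The second Ccnd2 probe, unsaturated, gave -1.80 on the log2 scale. For Ccnd2 the size of the difference thus rests on the probe. OM2i-iPSC lay on another slide than the other pluripotent arrays, so slide and population cannot be told apart here. Second probes read the other way for 4 of the 12, at -1.35 for Cdk6, -0.75 for E2f1, 1.17 for Cdc6 and 0.93 as a bound for Orc5, so these 4 have no settled direction here. The genes with 1 probe, Pola1, Orc1, Mcm2, E2f2 and Ccnd3, have no second reading on the array.

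How far a gene's value hung on 1 oligo could be counted. Of the 10 members at least 2-fold apart in ES over MEF that had another probe to compare, all other probes were at least 2-fold the same way for 5, another probe was at least 2-fold the opposite way for 1 (Cdk6), and neither held for 4. The counts were 9, 5, 2 and 2 in PM2i-iPSC over MEF, and 8, 3, 2 and 3 in OM2i-iPSC over MEF. Against ES fewer calls held on every probe, and for 0 of 5 such genes in OM2i-iPSC over ES did all probes pass 2-fold the same way. Between probes of 1 gene, the ES over MEF difference ran from 0.37 to 4.20 for Mcm3, from 0.64 to 3.89 for Ccnb1, from -0.79 to 3.02 for Orc4 and from -2.52 to 3.38 for Cdk6. It was far tighter for Ccnd2 (-4.58 to -4.12), Rfc2 (1.56 to 2.04) and E2f5 (1.08 to 1.10).

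**Figure D5:**
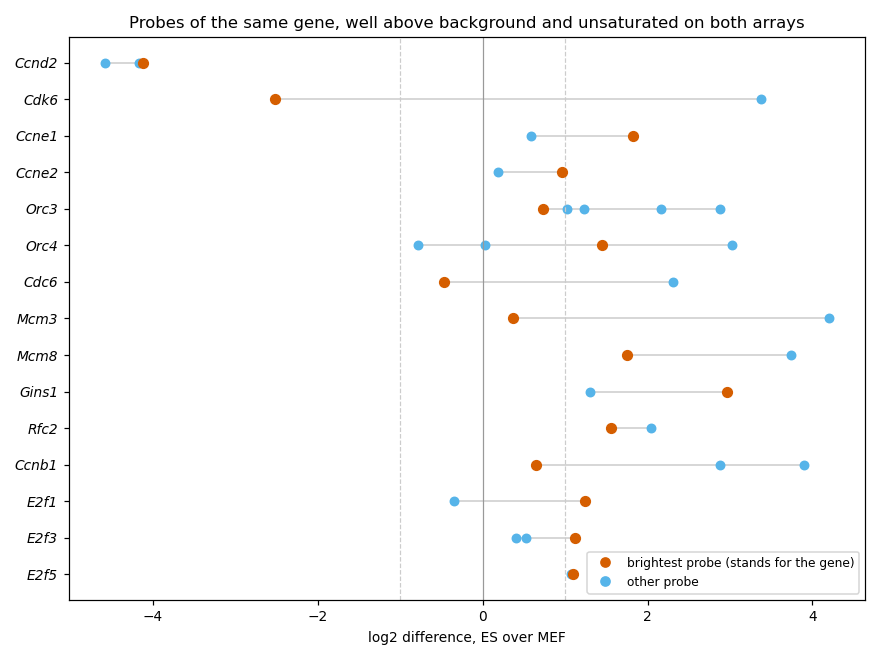
Log2 difference of ES over MEF (horizontal axis) for each probe that was well above background and unsaturated on both arrays, 1 row per gene with at least 2 such probes; orange is the brightest probe, which stands for the gene, blue the others, and dashed lines mark 2-fold. The probes of Ccnd2 and E2f5 lie together, while those of Cdk6, Orc4, Cdc6 and Mcm3 are spread over more than 2 log2 units.

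Genes of the same pathways outside the name pattern gave a like picture against MEF under the percentile scaling. Of a list of 52 other replication and cell cycle genes on the array, PM2i-iPSC had 28 at 2-fold or more above MEF and 2 as far below it, OM2i-iPSC had 27 above and 4 below, and ES had 32 above and 4 below. That was 53.8%, 51.9% and 61.5% of the list above MEF, where 37.6%, 40.1% and 36.3% of all genes were. Below MEF were 3.85%, 7.69% and 7.69% of it, where 26.2%, 25.2% and 24.2% of all genes were. The list was not recounted with median scaling. Its median differences were 1.14, 1.11 and 1.21, under those of the S phase part and above those of the G1 part. Ccnf, an F-box protein that limits re-replication, read 0.80 in PM2i-iPSC, 2.24 in OM2i-iPSC, 0.62 in ES and -3.50 in MEF. Mybl2, a transcription factor downstream of E2f, read 3.27, 3.04, 3.76 and -0.70 in that order. Wee1, the kinase that restrains Cdk1, read -2.51, -2.18 and -1.19 and was not well above background in MEF, so ES was at least 50.6-fold above it.

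The lower side of that list held Rbl2, a retinoblastoma family member, with -3.05 in PM2i-iPSC, -2.90 in OM2i-iPSC, -2.54 in ES and -1.02 in MEF, and Pold4, the small subunit of polymerase delta, with 0.39, 0.69, 0.17 and 2.18. Between the pluripotent populations, 4 genes of the list were higher and 4 lower in PM2i-iPSC over ES, 3 and 3 in OM2i-iPSC over ES, and 5 and 3 in PM2i-iPSC over OM2i-iPSC. As shares these were 7.69% and 7.69%, 5.77% and 5.77%, and 9.62% and 5.77%. Among all genes the shares were 14.6% and 11.8%, 21.6% and 13.7%, and 12.6% and 17.7%, so each share of the list was the smaller. Ccnd1, the D cyclin kept out of the set, read 1.72 in PM2i-iPSC, 2.26 in OM2i-iPSC, 3.63 in ES and 5.10 in MEF, where it was saturated, so that the pluripotent arrays were at least 10.5, 7.20 and 2.77-fold under MEF in that order. With Ccnd1 beside Ccnd2, 2 of the 3 D cyclins were thus highest in MEF, apart from the saturated Ccnd2 value of OM2i-iPSC, and Ccnd3 was not.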

How the data were processed

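Total RNA of 4 mouse populations was measured on 1-colour Agilent arrays with 60-base probes, 1 array per population. The scanner files hold spot intensity, which the authors deposited as extracted with Agilent Feature Extraction, version 10.7.3.1 for PM2i-iPSC, OM2i-iPSC and ES and 9.5.3.1 for MEF, per the file headers. Control spots and spots marked as outliers were left out here, log2 of the processed signal was taken, repeated spots were averaged by probe, and each array's 75th percentile was subtracted on that scale. The series table deposited by the authors gave matching intensity within 0.5% on each spot, with medians of 493, 522, 414 and 165 (PM2i-iPSC, OM2i-iPSC, ES, MEF), and was used as an alternative. The 4 Affymetrix arrays, deposited by the authors as log2 values made with RMA per the submitters' processing notes, were not used because their probe sets could not be paired with genes here.

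A gene was represented by its probe with the highest mean over the 4 arrays. Names follow the MEF file, updated through RefSeq accessions for 46 members and by symbol for 4. Comparisons took genes that the scanner software marked well above background on 1 or both of the arrays compared. A dimmer side without that mark was set to its own signal or to the array's lowest marked signal, whichever was higher, and the fold is given as "at least", as it is where the brighter side was saturated. No difference is given where the dimmer side or both were saturated. Genes were counted at 2-fold. Slides and scan days were compared and could not be separated from the populations.

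Every member could be named by the rule used, with all values for the helicase, G1, G2 and E2f genes, and for the other lists up to 4 genes with the widest difference in a comparison. The members, parts and lists were chosen with earlier results of these data known. Alternatives were median scaling, quantile normalization, normexp correction with an offset of 50 (limma 3.58.1 in R 4.3.3, on median signals because 3 of 4 files lack mean signals), the series table, the mean of all probes, other background filters, a single floor, and other borders between the parts. The second brightest probe was added after the data were seen. Other steps ran in Python 3.11.15 with pandas 2.3.3, and were tested on simulated data.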

Additional observations from a re-analysis of the deposited data

Results flagged for a closer look

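Ccnd2 and Orc1 were the member genes with differences from ES of opposite sign in the iPSC preparations that were each larger than the spread of spots. Ccnd2 stood at -0.87 in PM2i-iPSC over ES and, on the same probe, which was saturated in OM2i-iPSC, at 4.28 or more in OM2i-iPSC over ES. The second Ccnd2 probe gave -1.91 in PM2i-iPSC and -0.11 in OM2i-iPSC, where -0.11 is within the spread of spots. Orc1 stood at 1.05 in PM2i-iPSC over ES and at -0.72 in OM2i-iPSC over ES, on the 1 probe of that gene. The difference between the preparations was not tested, since each had 1 array, both comparisons share the ES array, and OM2i-iPSC was on a slide of its own.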

How the results depend on the processing

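Of the counts and part medians entered in a tally, 177 stayed within their limits under the alternatives and 27 moved. The limit was 1.5 times for a count and 0.272, 1 SD of a difference between spots on 2 arrays, for a median. The tally left out the part medians under median scaling, the single floor and no background filter. With median scaling, the S phase medians over MEF (0.76 in PM2i-iPSC, 0.59 in OM2i-iPSC, 0.94 in ES) all lay beyond that limit. So did the G1 medians of -0.13, -0.30 and 0.18. Median scaling gave 13 higher members in PM2i-iPSC, 10 in OM2i-iPSC and 16 in ES over MEF, with 7 lower in OM2i-iPSC and 5 in ES, and 1 higher in PM2i-iPSC over ES. Quantile normalization moved the G1 median of OM2i-iPSC over MEF to 0.82. Normexp moved that of PM2i-iPSC over MEF to 0.84 and left 1 higher member in PM2i-iPSC over ES. With the mean of all probes, 1 member was lower in PM2i-iPSC and 1 in ES over MEF, 7 in OM2i-iPSC over ES and 2 in PM2i-iPSC over OM2i-iPSC. The S phase medians over MEF were then 1.67 in PM2i-iPSC and 2.12 in ES, and the G1 medians 0.86 in PM2i-iPSC and 0.75 in OM2i-iPSC. The second brightest probe gave 3 lower members in PM2i-iPSC and 1 in ES over MEF, S phase medians of 1.72 and 2.14, and a G1 median of -0.19 in PM2i-iPSC over OM2i-iPSC. With E cyclins and Cdk2 moved to the S phase part, the G1 medians were -0.70 in PM2i-iPSC and -0.97 in ES over MEF, -0.62 in OM2i-iPSC over ES and 0.75 in PM2i-iPSC over OM2i-iPSC. With Orc genes and Cdc6 moved to G1, that of OM2i-iPSC over MEF was 0.46. The cause was not tested except where the alternative changes the probes or the members itself.

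Of the values of single members, 2130 stayed, 438 moved and 22 were counted as reversed, all 22 through the choice of probe. Only differences of at least 2-fold in the main analysis could count as reversed. Smaller ones that changed sign were counted as stayed or moved. With the mean of all probes, Cdk6 was 0.86 in PM2i-iPSC, 0.75 in OM2i-iPSC and 0.44 in ES over MEF and 0.31 in OM2i-iPSC over ES, and in OM2i-iPSC over MEF Orc4 was -0.70 and Mcm4 1.37. With the second brightest probe, Cdk6 was 4.04, 5.38 and 3.38 over MEF in the same order, 2.01 in OM2i-iPSC over ES and -1.35 in PM2i-iPSC over OM2i-iPSC. Cdc6 was 1.52 in PM2i-iPSC over MEF and 1.17 in PM2i-iPSC over OM2i-iPSC. E2f1 was -0.13 in PM2i-iPSC and -0.35 in ES over MEF, 0.97 in OM2i-iPSC over ES and -0.75 in PM2i-iPSC over OM2i-iPSC. Orc4 was -1.77 in OM2i-iPSC and -0.79 in ES over MEF. In OM2i-iPSC over ES, Ccnd2 was -0.11 and Orc5 -0.44, and Orc5 was 0.93 in PM2i-iPSC over OM2i-iPSC.

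With 1 array per population, none was left out and no error between cultures is known. No paired analysis was possible because the populations share no replicate numbers. Values near the lowest signal well above background (147 in PM2i-iPSC, 142 in OM2i-iPSC, 90.1 in ES and 16.3 in MEF) and saturated values limit Orc1, Ccnb3, Mcm4, E2f7 and Ccnd2.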

Other observations

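A few cell cycle regulators outside the set stood apart between the pluripotent arrays, given here as values on their brightest probes. Fzr1, which steers the anaphase-promoting complex in G1, was 2.65 log2 units lower in OM2i-iPSC over ES and 2.65 higher in PM2i-iPSC over OM2i-iPSC. Cdc25a, a phosphatase that activates Cdk2 and Cdk1, was 1.64 higher in OM2i-iPSC over ES and 2.02 lower in PM2i-iPSC over OM2i-iPSC. Rpa3, the small subunit of the single-strand binding protein, was 1.73 lower in PM2i-iPSC and 2.14 lower in OM2i-iPSC, both over ES. Skp2, the F-box protein that targets the inhibitor p27, was 1.34 higher in PM2i-iPSC and 1.22 higher in OM2i-iPSC over ES. Foxm1, a transcription factor for mitotic genes, was 1.52 lower in PM2i-iPSC over ES.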
